A study of Mus musculus with 26 samples.

Results

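YAP (gene Yap1) and TAZ (gene Wwtr1) were followed with the TEAD partner gene Tead1 and 7 of their known target genes in RNA from mice with pancreatic cancer. The 10 genes are Ankrd1, Ccn1 (Cyr61), Ccn2 (Ctgf), Amotl2, Axl, Lats2, Ajuba, Tead1, Yap1 and Wwtr1, all 10 of them among the 16322 genes listed for whole tumours. They were chosen by symbol after Ankrd1 had been seen to fall in tumours of treated mice, so the tumour comparison of treatment is given for them as a description, without p-values. The mice were KPC mice, an engineered strain that develops ductal carcinoma of the pancreas, and all groups share that background. The labels name the strain only and give neither alleles, age nor the make-up of the vehicle. Treated mice had received GS9820 for 14 days, a drug against p110δ, the leukocyte-enriched catalytic subunit of PI3K (phosphoinositide 3-kinase), and control mice had received vehicle, with no day given. Whole tumours gave 5 GS9820 and 7 vehicle libraries. Monocytes sorted from the spleen gave 4 GS9820 and 3 vehicle libraries, and polymorphonuclear cells (PMN) sorted from the spleen gave 4 GS9820 and 3 vehicle libraries.

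YAP and TAZ are transcriptional coactivators that carry no DNA-binding domain of their own and reach DNA mainly through TEAD factors. The Hippo kinases LATS1 and LATS2 phosphorylate them and thereby hold them in the cytoplasm, while cell spreading, stiff matrix and actin tension favour their entry into the nucleus. Some of their target genes, among them Lats2 and Amotl2, encode inhibitors of YAP and TAZ and so form feedback loops. In the pancreas, YAP and TAZ are known for roles in duct cells, stellate cells and ductal carcinoma, and they are low in acinar cells.

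DNA next to the start sites of Ankrd1 and Ccn1 is shown because Ankrd1 had the largest difference after treatment and Ccn1 one of the smallest. The sequences come from RefSeq promoter windows of mouse build GRCm38.p6, 250 bases before the start that RefSeq gives, read 5′ to 3′ on the gene's strand. Capitals mark each GGAATG, the core that TEAD factors are known to bind, or CATTCC, the same letters on the other strand. For Ankrd1 only the 2 matches with their flanks are shown, since the RefSeq start lies 255 bases inside the gene as GENCODE draws it and all 250 bases of the window are in an exon of a GENCODE transcript.
Ankrd1 first match, chr19:36120037-36120066, minus strand: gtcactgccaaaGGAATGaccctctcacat
Ankrd1 second match, chr19:36119950-36119979, minus strand: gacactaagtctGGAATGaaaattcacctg
Ccn1, chr3:145649986-145650235, minus strand: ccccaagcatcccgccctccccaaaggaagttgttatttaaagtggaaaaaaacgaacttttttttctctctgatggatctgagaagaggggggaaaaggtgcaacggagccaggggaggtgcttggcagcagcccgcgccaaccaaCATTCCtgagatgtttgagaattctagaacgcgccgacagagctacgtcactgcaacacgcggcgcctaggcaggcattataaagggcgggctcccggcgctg
The Ankrd1 matches began 210 and 123 bases before the RefSeq start, and the 1 match of Ccn1 began 103 bases before it. The promoter table had 10 windows for 8 of the 10 genes. Of these windows 8 held the TEAD core, against 12.6% of the 32817 promoter windows of the same length in the table. The match began 65 bases before the start in Amotl2, 141 in Yap1 and 233 in Axl, and Ajuba had matches 186 and 164 bases before it. Wwtr1 had 2 overlapping windows that hold one and the same site, and the Lats2 windows held no match. The RefSeq starts used for Lats2 lie 12265 and 23970 bases inside the GENCODE gene, and that for Amotl2 1132 bases inside. DNA before the GENCODE gene start was therefore not searched for Lats2 and Amotl2, nor for Ankrd1. The AP-1 motif TGANTCA was in 0 of the 10 windows, against 6.75% of all windows, and the CArG box bound by serum response factor (SRF) in 0, against 1.47%. Both strands were searched, and no 2 of the 3 motifs overlapped in these windows. Of the 10 windows 3 overlap an exon of their gene in GENCODE, those of Ankrd1 and Amotl2 and 1 of Wwtr1. The start used for Axl and for Ajuba was not found in the GENCODE transcripts of those genes. A match is a match of letters only. The core was present for both Ankrd1 and Ccn1. The Ankrd1 window lies inside its GENCODE gene and the Ccn1 window before its gene, so these windows cannot be compared as like DNA.

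Each library holds a deposited log2 expression value per gene, called log2 RPKM by the authors. Within tumours, and within sorted cells, all libraries hold almost 1 and the same set of values, so sequencing depth is unknown and no counting error can be given. In all comparisons below a difference is one of deposited log2 values, given with its standard error (SE), and a gene was called at an adjusted p under 0.05 over all genes tested (limma, Benjamini-Hochberg). Of 16296 genes tested in tumours 359 were called (2.2%). The deposited RNA of whole tumours came from mixed tissue, in which fewer cells of a type and less RNA per cell cannot be told apart.

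One tumour stood apart for these genes. The tumour library GS9820 replicate 1 had the lowest value of the 12 tumours in all 10 of the 10 genes, while it was lowest in 20.82% of all genes tested. Its mean over 10 fibroblast markers was 7.19, the lowest of the treated tumours but above vehicle replicates 3 (6.94) and 5 (7.14). Of the 12 tumours it had the highest mean over 8 smooth muscle and pericyte markers (6.83) and the lowest over 6 macrophage markers (5.63). Its mean over 4 hepatocyte markers was 6.74. Hepatocyte means were 11.89 in GS9820 replicate 3 and 6.50 in vehicle replicate 4, and lay between 0.46 and 3.12 in the other vehicle tumours. Vehicle replicate 1 had the lowest mean over 12 ductal and carcinoma markers, 4.65, where the other tumours had 7.34 to 9.29. Values without GS9820 replicate 1 are given beside the results on the 10 genes, their pairs and the wider lists.

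**Figure D1:**
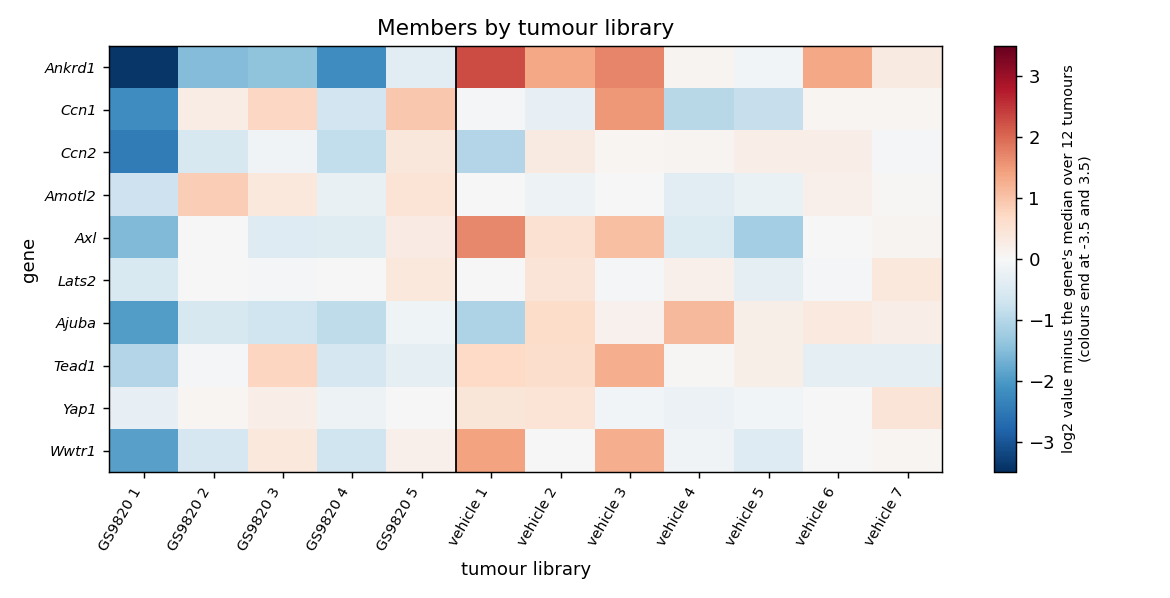
Each cell shows the deposited log2 value of a gene minus its median over the 12 tumours, with GS9820 libraries left of the black line and vehicle libraries right of it; blue is below and red above that median. The first column, GS9820 replicate 1, is the lowest in all 10 rows, and the Ankrd1 row is the only one in which every GS9820 library lies below every vehicle library.

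Ankrd1 (ENSMUSG00000024803, GRCm38 chromosome 19, 36111961 to 36120099, minus strand) encodes a nuclear and sarcomeric ankyrin repeat protein and is a widely used readout of YAP activity. Its values were 2.54, 4.43, 4.55, 3.77 and 5.59 in the GS9820 tumours, against a lowest of 5.86, a median of 7.30 and a highest of 8.24 in the vehicle tumours. All 5 GS9820 values lay below all 7 vehicle values, a pattern of no overlap in the lower direction that 1.86% of all genes showed. The means were 4.18 ± 1.12 (SD, n = 5) in GS9820 tumours and 6.95 ± 0.90 (SD, n = 7) in vehicle tumours, a difference of -2.78 ± 0.52 with a 95% interval of -3.90 to -1.65. Among the 216 genes called lower after GS9820 (1.33% of those tested) it had the 8th largest fall, and among all genes tested the 39th largest fall. Because Ankrd1 was picked for its fall in this comparison, its call, rank, interval and lack of overlap are a description only. Without GS9820 replicate 1 the difference was -2.37 ± 0.48. The call was lost when GS9820 replicate 2 or 4 or vehicle replicate 2 or 3 was left out, with differences of -2.84, -2.67, -2.72 and -2.66.

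The CCN target genes, which encode secreted matrix-associated proteins that bind integrins, are the other most used readouts. Ccn1 (ENSMUSG00000028195, chromosome 3, 145646976 to 145649981) had values of 5.07, 7.50, 7.96, 6.57 and 8.17 in the GS9820 tumours, against a lowest of 6.27, a median of 7.18 and a highest of 8.76 in the vehicle tumours. Replicate 1 was the single GS9820 tumour below the vehicle range, and 3 of the others were above the vehicle median. The difference was -0.12 ± 0.53 (95% interval -1.27 to 1.04), and 0.38 ± 0.44 without GS9820 replicate 1. Ccn2 (ENSMUSG00000019997, chromosome 10, 24595442 to 24598683) had values of 7.05, 8.92, 9.35, 8.63 and 9.87 in the GS9820 tumours, against a lowest of 8.45, a median of 9.58 and a highest of 9.80 in the vehicle tumours. The GS9820 tumours held both the lowest and the highest value of all 12. The difference was -0.70 ± 0.41 (95% interval -1.58 to 0.19), and -0.27 ± 0.29 without GS9820 replicate 1.

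Ajuba and Axl had negative differences with overlap. Ajuba, which encodes a LIM protein that binds LATS kinases and restrains them, had values of 4.16, 5.56, 5.42, 5.21 and 5.95 in the GS9820 tumours, against a lowest of 5.02, a median of 6.34 and a highest of 7.25 in the vehicle tumours. All 5 GS9820 tumours were below the vehicle median, and the overlap came from a single vehicle tumour, replicate 1, at the low end. The difference was -1.09 ± 0.36 (95% interval -1.87 to -0.30), the largest after that of Ankrd1, and -0.81 ± 0.33 without GS9820 replicate 1. Axl, which encodes a receptor tyrosine kinase for GAS6, had values of 6.66, 8.21, 7.76, 7.78 and 8.51 in the GS9820 tumours, against a lowest of 7.02, a median of 8.32 and a highest of 9.90 in the vehicle tumours. Its vehicle range was wide and enclosed 4 of the GS9820 values. The difference was -0.68 ± 0.46 (95% interval -1.67 to 0.31), and -0.40 ± 0.45 without GS9820 replicate 1.

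The feedback genes showed small differences. Amotl2, which encodes an angiomotin family protein that tethers YAP, had values of 5.59, 7.17, 6.70, 6.06 and 6.80 in the GS9820 tumours, against a lowest of 5.94, a median of 6.32 and a highest of 6.51 in the vehicle tumours. With 3 GS9820 tumours above every vehicle tumour and 1 below them, the treated tumours spread to both sides of the vehicle range, with SDs of 0.63 (n = 5) in GS9820 and 0.19 (n = 7) in vehicle tumours. Amotl2 had the only positive difference of the 10 genes, 0.22 ± 0.24 (95% interval -0.29 to 0.74), and 0.44 ± 0.20 without GS9820 replicate 1. Lats2, which encodes a kinase that inactivates YAP and TAZ, had values of 5.23, 5.76, 5.69, 5.75 and 6.12 in the GS9820 tumours, against a lowest of 5.42, a median of 5.75 and a highest of 6.21 in the vehicle tumours. The groups lay on top of each other apart from GS9820 replicate 1. The difference was -0.12 ± 0.18 (95% interval -0.51 to 0.27), and 0.00 ± 0.17 without that library.

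The coactivator genes and Tead1 overlapped between groups as well. Yap1 had values of 6.08, 6.45, 6.61, 6.20 and 6.37 in the GS9820 tumours, against a lowest of 6.16, a median of 6.37 and a highest of 6.84 in the vehicle tumours. It was among the least variable of the 10 genes, with SDs of 0.21 (n = 5) in GS9820 and 0.30 (n = 7) in vehicle tumours, and its difference of -0.17 ± 0.17 had a 95% interval of -0.53 to 0.20 and was -0.10 ± 0.18 without GS9820 replicate 1. Wwtr1, which encodes TAZ, had values of 4.58, 5.88, 6.85, 5.77 and 6.64 in the GS9820 tumours, against a lowest of 6.02, a median of 6.49 and a highest of 7.87 in the vehicle tumours. GS9820 replicates 1, 2 and 4 lay below the vehicle range and replicates 3 and 5 above the vehicle median. The difference was -0.83 ± 0.42 (95% interval -1.75 to 0.08), and -0.49 ± 0.38 without GS9820 replicate 1. Tead1, which encodes a DNA-binding partner of both, had values of 5.34, 6.32, 7.11, 5.78 and 6.01 in the GS9820 tumours, against a lowest of 6.0, a median of 6.55 and a highest of 7.62 in the vehicle tumours. Replicates 1 and 4 were below the vehicle range, and the difference was -0.54 ± 0.33 (95% interval -1.27 to 0.18), and -0.35 ± 0.34 without GS9820 replicate 1. The annotation holds further transcript models that overlap Ccn2, Lats2, Tead1, Yap1 or Wwtr1, and how the reads were counted by strand is not given in the sources used here.

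**Figure D2:**
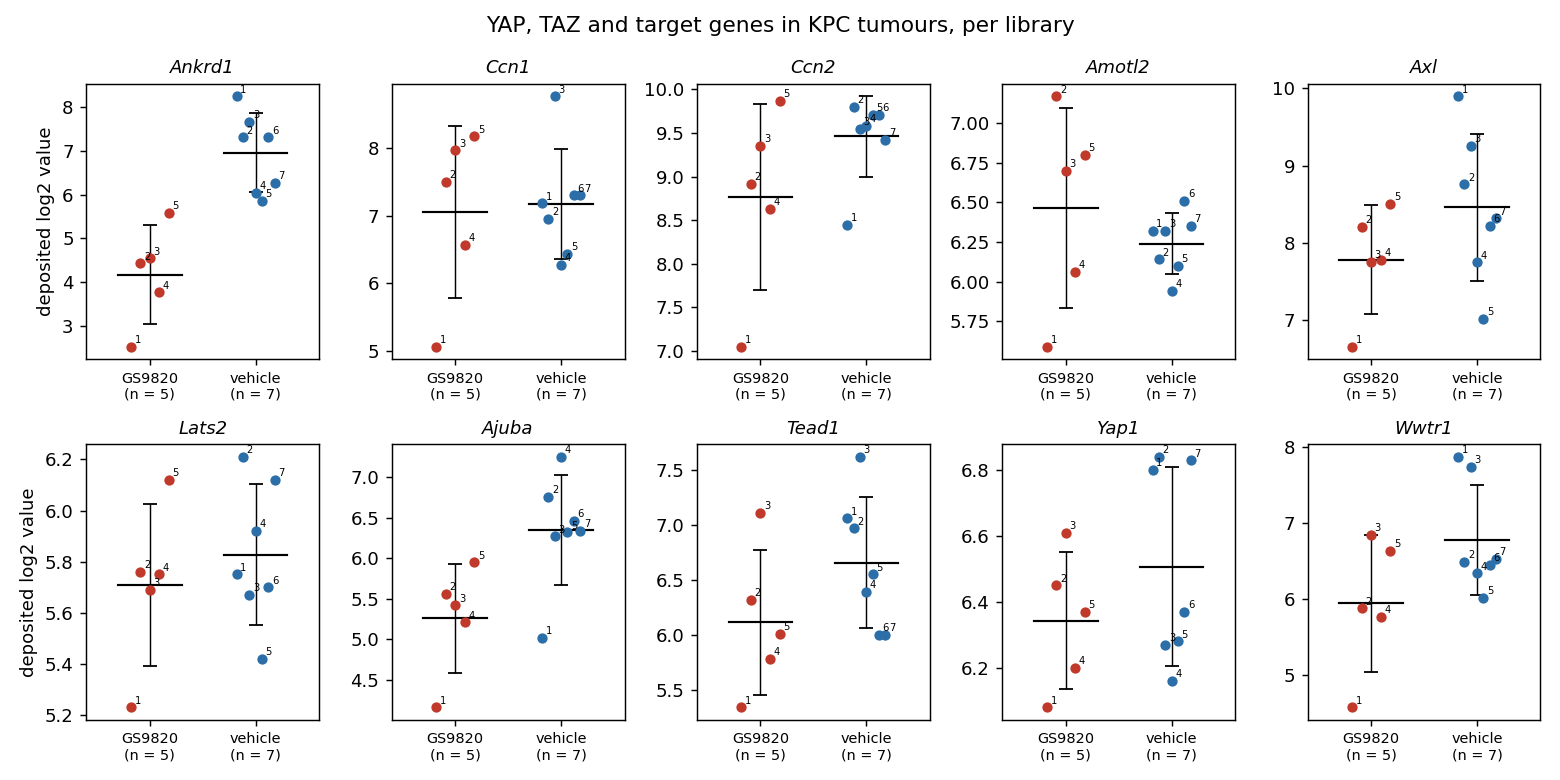
Deposited log2 values of the 10 genes in each tumour library, GS9820 (red, n = 5) left and vehicle (blue, n = 7) right; small numbers are replicates, the horizontal line is the mean and the bar the SD, and each panel has its own vertical scale. The groups are apart in the Ankrd1 panel and overlap in the other 9.

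Of the 10 genes 9 had a negative difference and 1, Ankrd1, was called, where 2.2% of all genes were called and 54.7% had a negative difference. The median of the 10 differences was -0.61, against -0.06 over all genes tested. Without GS9820 replicate 1 there were 7 negative and 2 positive differences, that of Lats2 was 0.00, and the median was -0.31, against -0.05 over all genes. Since Ankrd1 entered by its fall and GS9820 replicate 1 was lowest for every gene, nothing is read from these counts.

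Other genes of the pathway were read from wider lists. Of 16 further YAP and TAZ targets from a published human cancer signature, all of them tested, 0 were called by limma, 13 had a negative difference and the median was -0.28. At an unadjusted p under 0.05 there were 3, all lower after GS9820, where 24.4% of all genes tested had such a p and 15.3% had it and were lower. Without GS9820 replicate 1 there were 11 negative differences and a median of -0.17. Myof, which encodes the membrane repair protein myoferlin, averaged 8.06 ± 0.86 (SD, n = 5) in GS9820 tumours and 9.13 ± 0.46 (SD, n = 7) in vehicle tumours, a difference of -1.07 ± 0.35 (limma, adjusted p = 0.101), and -0.73 ± 0.28 without GS9820 replicate 1. The forkhead factor gene Foxf2 differed by -2.30 ± 0.97, with values from -1.27 to 2.80 in GS9820 tumours and from 0.26 to 4.90 in vehicle tumours (limma, adjusted p = 0.172), and by -2.94 ± 0.95 without GS9820 replicate 1. Neither difference was past the threshold, and that of Foxf2 rested on low and scattered values.

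Among TEAD factors and their vestigial-like cofactors 0 of 5 tested genes were called, and 2 of them, both lower after GS9820, had an unadjusted p under 0.05, in a list too short to set beside the 24.4% of all genes. Tead4 had values of 1.69, 1.67, 1.78, 2.32 and 2.86 in the GS9820 tumours, against a lowest of 2.17, a median of 2.91 and a highest of 3.86 in the vehicle tumours (difference -0.93 ± 0.33; limma, adjusted p = 0.118). Vgll4, whose protein competes with YAP for TEAD, differed by -0.51 ± 0.21 (limma, adjusted p = 0.157). With GS9820 replicate 1 left out they differed by -0.83 ± 0.35 (Tead4) and -0.46 ± 0.22 (Vgll4). For both genes the GS9820 and vehicle tumours overlapped.

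Of the Hippo kinases, scaffolds and inputs 21 were tested and 0 were called, with 11 positive and 10 negative differences and a median of 0.02. Wwc2, which encodes a scaffold that activates LATS kinases, came closest. Its values were 5.19, 6.01, 5.85, 5.53 and 5.89 in the GS9820 tumours, against a lowest of 5.83, a median of 6.75 and a highest of 7.04 in the vehicle tumours. The difference was -0.93 ± 0.23 (limma, adjusted p = 0.0564), and the groups met at the lowest vehicle tumour. Taok2, which encodes a kinase upstream of the MST kinases, differed by 0.44 ± 0.16 (limma, adjusted p = 0.131). The differences without GS9820 replicate 1 were -0.80 ± 0.23 for Wwc2 and 0.50 ± 0.17 for Taok2.

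Genes driven by SRF were listed because several are also called YAP targets and report actin tension. Of 15 tested 0 were called, and 2 had an unadjusted p under 0.05, a smaller share than the 24.4% of all genes. Vcl, which encodes the focal adhesion protein vinculin, averaged 7.25 ± 0.33 (SD, n = 5) in GS9820 tumours and 7.94 ± 0.35 (SD, n = 7) in vehicle tumours (difference -0.69 ± 0.20; limma, adjusted p = 0.0794). Tpm2, a tropomyosin gene, differed by -0.78 ± 0.32 (limma, adjusted p = 0.165). Leaving out GS9820 replicate 1 gave -0.60 ± 0.21 for Vcl and -0.99 ± 0.32 for Tpm2. The contractile genes Acta2 (0.06 ± 0.40) and Tagln (0.07 ± 0.44) differed by far less than their SE, and without that library by -0.02 ± 0.44 and -0.05 ± 0.47. Of the other CCN genes and the relatives of Ankrd1, 0 of 4 tested were called, and Ccn5 (0.89 ± 0.41; limma, adjusted p = 0.208) and Ccn3 (0.82 ± 0.74; limma, adjusted p = 0.516) were those of smallest p. With GS9820 replicate 1 left out these were 1.19 ± 0.39 and 1.09 ± 0.79, and 0 genes of the 5 lists were called then too (limma).

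**Figure D3:**
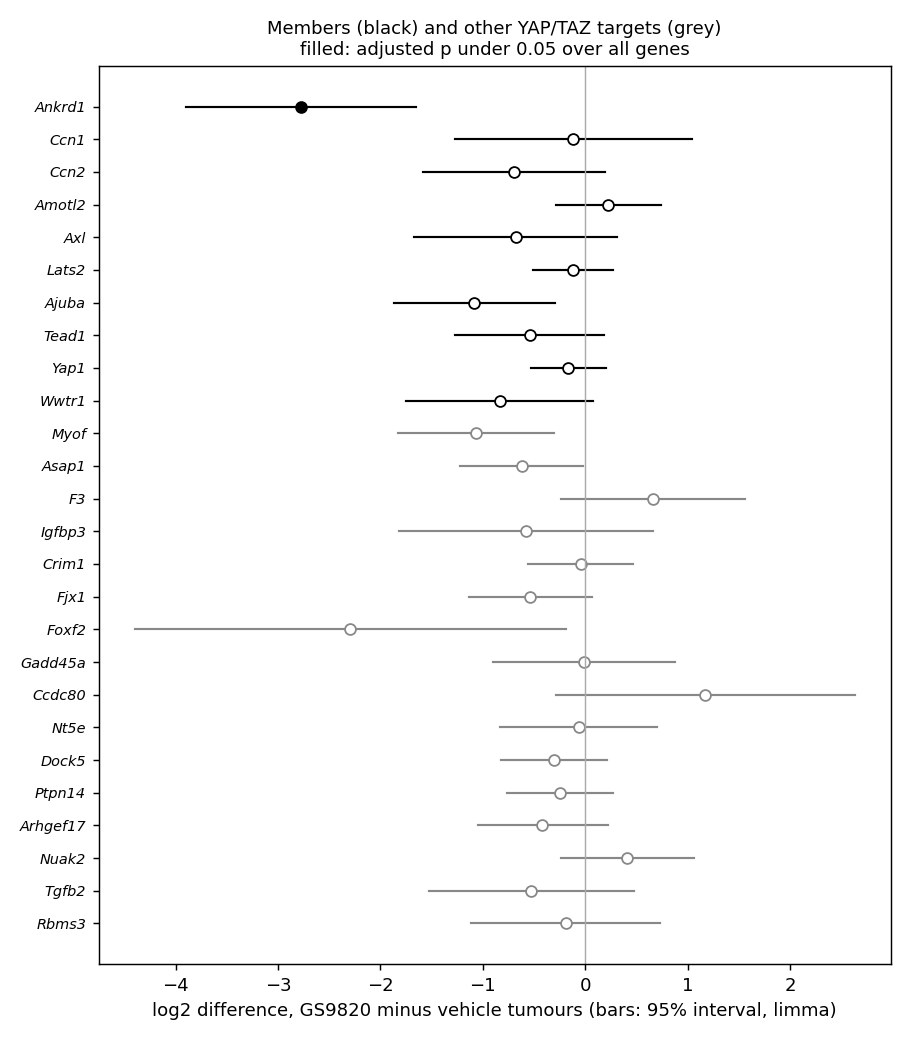
Log2 differences between GS9820 and vehicle tumours (points) with 95% limma intervals (bars) for the 10 genes (black) and 16 further targets (grey); filled points have an adjusted p under 0.05 over all genes. Ankrd1, which was picked for its fall, is the single filled point, at -2.78, and Amotl2 is the single black point right of 0.

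The tissue around the cancer cells also differed between the tumours. All 12 acinar markers had a positive difference (median 2.58) with 0 called, and the acinar mean ran from 6.99 to 11.73 in GS9820 tumours and from 3.41 to 11.82 in vehicle tumours. With that mean as a covariate the Ankrd1 difference was -2.67 ± 0.59 and the gene was no longer called, as with every other gene (0 called by limma). Without the 3 tumours that held hepatocyte transcripts it was -2.51 ± 0.54 and was not called either. Ductal and carcinoma markers averaged 7.44 to 9.0 in GS9820 tumours and 4.65 to 9.29 in vehicle tumours. Fibroblast markers averaged 7.19 to 9.10 in GS9820 tumours and 6.94 to 8.56 in vehicle tumours. Smooth muscle and pericyte markers averaged 5.31 to 6.83 in GS9820 tumours and 4.46 to 6.11 in vehicle tumours. Of 10 fibroblast markers the matrix gene Dcn rose (1.61 ± 0.33; limma, adjusted p = 0.0339), and of 8 endothelial markers Kdr (1.06 ± 0.23; limma, adjusted p = 0.0358) and Egfl7 (1.02 ± 0.22; limma, adjusted p = 0.0376) rose, with 0 of 12 ductal and 0 of 8 smooth muscle markers called. All 4 listed mesothelial markers had an unadjusted p under 0.05 with 0 called (limma), Upk3b (2.47 ± 0.61), Lrrn4 (1.84 ± 0.47) and Wt1 (1.46 ± 0.52) with positive differences and Msln (-2.19 ± 0.81) with a negative one. Their mean ran from 3.08 to 5.01 in GS9820 tumours and from 2.09 to 4.05 in vehicle tumours. It mixes unlike genes, since the vehicle median was 8.91 for Msln but 1.44 for Upk3b, 0.94 for Lrrn4 and 2.15 for Wt1. The list was therefore not read as 1 tissue. All 7 neutrophil markers tested had a negative difference (median -1.17), with 0 called and 0 at an unadjusted p under 0.05 (limma). The neutrophil means ran from 2.06 to 3.91 in GS9820 tumours and from 1.90 to 7.28 in vehicle tumours. The highest was that of vehicle replicate 5, and the other vehicle tumours had 1.90 to 4.30. The single skeletal muscle marker listed, of 6, ranged from 0.73 to 3.33 in GS9820 tumours and from 2.30 to 4.97 in vehicle tumours. The part of these tissues in the Ankrd1 values was not tested beyond the covariate and the tumours left out.

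Which of the 10 genes vary together from tumour to tumour was asked with the group means removed, so that the treatment difference did not enter. Over the 12 tumours 43 of the 45 pairs had a positive correlation of these deviations, with a median Pearson r of 0.48. The share among pairs of other genes was not computed, so the counts of pairs are not read as particular to these genes. High values were not rare. Of 13142 protein-coding genes set against Ankrd1 in the same way, Ccn1 (r = 0.796) ranked 278 and Tead1 (r = 0.574) ranked 1762. By permutation within groups 8 pairs passed with Pearson's r and 3 with Spearman's rho after adjustment over the 45 pairs. Ankrd1 went with Axl (r = 0.90, raw permutation p = 8.00e-05, adjusted 0.00360; rho = 0.86, raw permutation p = 0.000780, adjusted 0.0141) and with Wwtr1 (r = 0.87, raw permutation p = 0.000660, adjusted 0.0130; rho = 0.85, raw permutation p = 0.000670, adjusted 0.0141). Axl went with Wwtr1 (r = 0.84, raw permutation p = 0.000870, adjusted 0.0130; rho = 0.90, raw permutation p = 0.000940, adjusted 0.0141). These 3 genes, a pair of targets and TAZ itself, had their highest deposited value in vehicle replicate 1 and their lowest in GS9820 replicate 1. Of the deviations, that of vehicle replicate 1 was the highest for Axl (1.44) and Wwtr1 (1.10), and that of GS9820 replicate 5 for Ankrd1 (1.42).

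The other 5 pairs passed with Pearson's r only. They were Ccn2 with Ajuba (r = 0.85, rho = 0.74), Ccn1 with Wwtr1 (r = 0.84, rho = 0.76), Ankrd1 with Ccn1 (r = 0.80, rho = 0.78), Ccn1 with Amotl2 (r = 0.78, rho = 0.80) and Tead1 with Wwtr1 (r = 0.76, rho = 0.76), in the order of their adjusted permutation p-values of 0.0187, 0.0187, 0.0271, 0.0499 and 0.0499 (raw 0.00208, 0.00200, 0.00362, 0.00888 and 0.00839). Their rho had raw permutation p-values of 0.0109, 0.00677, 0.00507, 0.00841 and 0.00819, adjusted 0.0600 for the first and 0.0541 for the other 4. Ankrd1 and Ajuba, the genes with the largest differences between the groups, showed an r of 0.08 (raw permutation p = 0.805, adjusted 0.850) and a rho of 0.09 (raw permutation p = 0.789, adjusted 0.841). Ankrd1 and Ccn2 had an r of 0.43 (raw permutation p = 0.227, adjusted 0.352) and a rho of 0.41 (raw permutation p = 0.233, adjusted 0.419). Both values average unlike groups. In the GS9820 tumours Ankrd1, Ajuba and Ccn2 were all lowest in replicate 1 and highest in replicate 5, while over the 7 vehicle tumours the r of Ankrd1 was -0.65 with Ajuba and -0.55 with Ccn2, given without a test. Without GS9820 replicate 1 the r over 11 tumours was -0.38 with Ajuba and -0.05 with Ccn2. Vehicle replicate 1 had the highest Ankrd1 value (8.24) and the lowest vehicle values of Ajuba (5.02) and Ccn2 (8.45). With that tumour left out too, r was 0.14 with Ajuba and 0.62 with Ccn2, so the sign of r depended on it.

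Much of the shared variation lay in GS9820 replicate 1. Without it 31 of the 45 pairs had a positive r with a median of 0.26, and 1 pair passed, Ankrd1 with Axl (r = 0.87, adjusted permutation p = 0.0360). The r was then 0.79 for Ankrd1 with Wwtr1, 0.79 for Axl with Wwtr1, 0.79 for Ccn2 with Ajuba and 0.67 for Ankrd1 with Ccn1. Without the 2 tumours farthest from the median of the first gene of the pair, GS9820 replicate 1 and vehicle replicate 1, r was 0.81 for Ankrd1 with Axl, 0.70 for Ankrd1 with Wwtr1, 0.67 for Axl with Wwtr1, 0.80 for Ankrd1 with Ccn1 and 0.48 for Ccn2 with Ajuba. Ccn2 with Ajuba therefore rested on those tumours. Without GS9820 replicate 1 and vehicle replicate 3, r was 0.61 for Ccn1 with Wwtr1, 0.75 for Ccn1 with Amotl2 and 0.57 for Tead1 with Wwtr1.

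**Figure D4:**
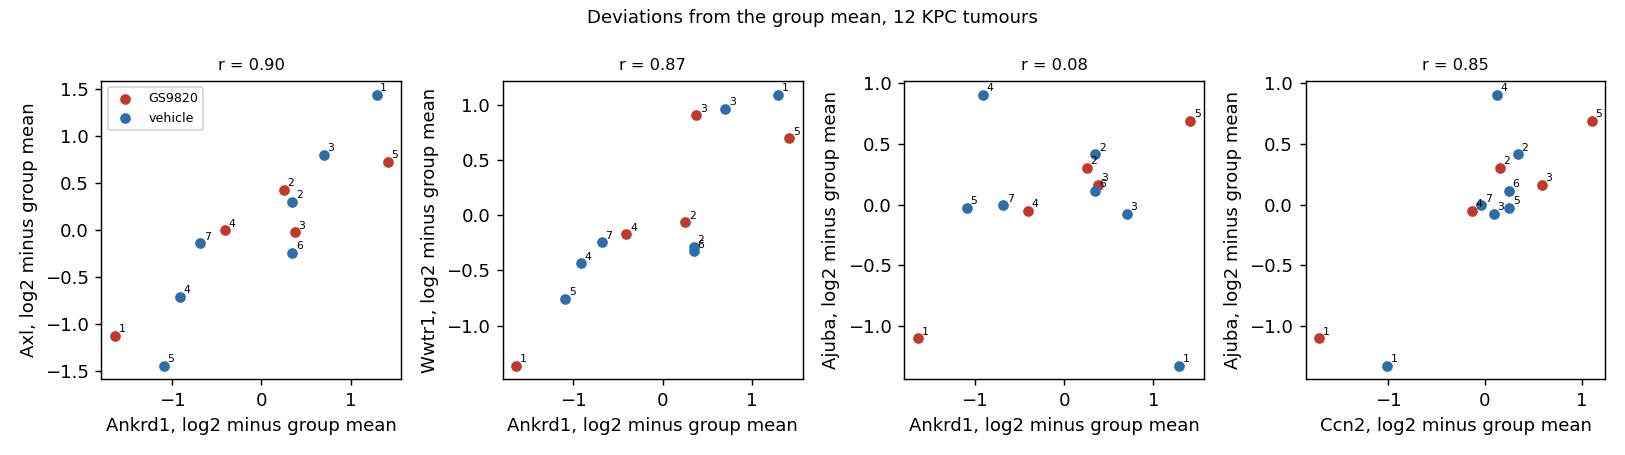
Deviations from the group mean in log2 units for 4 pairs of genes in the 12 tumours (GS9820 red, vehicle blue, numbers are replicates). Ankrd1 lies along a line with Axl (r = 0.90) and Wwtr1 (r = 0.87), while with Ajuba (pooled r = 0.08) the GS9820 points run upward and the vehicle points downward, with vehicle replicate 1 at the lower right, and the r of 0.85 between Ccn2 and Ajuba is drawn out by the replicates 1 of both groups.

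The genes most like Ankrd1 were looked up among 13142 protein-coding genes over the 12 tumours, as a description that includes the difference between the groups. They were Itgb1, which encodes integrin β1 (r = 0.959), Nme2 (0.955), Gm20390 (0.951), Eftud2 (0.949) and Klra2 (0.947). Of the 9 other genes followed here, Wwtr1 (r = 0.827, rank 259) and Axl (r = 0.783, rank 560) came nearest and Amotl2 (r = 0.137, rank 6306) was the most distant. Gm20390 overlaps Nme2 in the annotation, so these values may share reads. With the group means removed the nearest genes were Mcrip1 (0.937), Nes (0.932), Map6 (0.928), Eftud2 (0.927) and Fbn1 (0.925), and Axl (0.897) was at rank 22 and Wwtr1 (0.866) at rank 78. Nes encodes the intermediate filament protein nestin and Fbn1 the microfibril protein fibrillin. The mean of Ccn1 and Ccn2 had other nearest genes, Kctd11 (r = 0.963), Pdlim7 (0.944), Mmp3 (0.928), Cdk17 (0.922) and Zfp568 (0.914), and Ankrd1 (0.593) at rank 982. With group means removed they were Kctd11 (0.961), Csnk1e (0.952), Pdlim7 (0.940), Zfp46 (0.932) and Cdk17 (0.930).

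Sorted splenic myeloid cells gave a second view that played no part in the choice of the genes. Only Amotl2, Axl, Lats2 and Wwtr1 were among the 14131 genes listed for these cells, and Ankrd1, Ccn1, Ccn2, Ajuba, Tead1 and Yap1 were not listed. Monocyte markers were higher in monocytes, where 5 of 6 rose, and of 8 neutrophil markers 3 fell there, with Cxcr2 at 4.93 to 8.22 in vehicle monocytes and 11.96 to 12.35 in vehicle PMN. Neutrophil genes such as S100a8 were high in both, at 12.83 to 14.05 in vehicle monocytes and 14.05 in all vehicle PMN.

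Amotl2 was lower in monocytes than in PMN. In vehicle mice it had values of 3.86, 3.84 and 3.17 in monocytes, against 4.34, 5.06 and 5.63 in PMN. All monocyte values were below all PMN values, and the difference was -1.39 ± 0.29 (limma, adjusted p = 0.00126, 95% interval -2.02 to -0.76). With the replicate number as a block it had an adjusted p of 0.00710 (limma). Wwtr1 had values of -2.33, -3.59 and -2.30 in vehicle monocytes, against 0.24, -2.39 and 1.78 in vehicle PMN. These are among the lowest values in the files, and the gene passed the filter on low values only through PMN libraries. The difference of -2.62 ± 0.95 passed the test (limma, adjusted p = 0.0299), but passing the filter only through PMN favours a negative difference. PMN replicate 2 lay below 2 of the 3 monocyte libraries. Without PMN replicate 1 or 3 or monocyte replicate 2 it no longer passed, with differences of -2.43, -1.66 and -2.19.

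Axl had values of 2.25, 2.51 and 4.34 in vehicle monocytes, against 5.26, 4.90 and 2.64 in vehicle PMN. The replicates 3 of both cell types ran against the others, and the difference of -1.23 ± 0.64 did not pass (limma, adjusted p = 0.113). Without PMN replicate 3 it was -2.05 (limma, adjusted p = 0.00645) and without monocyte replicate 3 it was -1.89 (limma, adjusted p = 0.0179). Lats2 had values of 6.58, 6.23 and 6.77 in vehicle monocytes, against 6.87, 6.58 and 6.76 in vehicle PMN, a difference of -0.21 ± 0.12 (limma, adjusted p = 0.157). Without monocyte replicate 3 the difference was -0.33 (limma, adjusted p = 0.0266).

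With Wwtr1 set aside, 1 of the 3 genes that reached the filter in both cell types, Amotl2, was called lower in monocytes, where 27.2% of all 13968 genes tested were called lower and 60.1% in either direction. Markers of some other tissues were lower in monocytes too, and all 3 smooth muscle and pericyte markers and 3 of 5 ductal and carcinoma markers fell. Other lists did not go that way. Of 3 fibroblast markers tested 0 were called, and of 4 endothelial markers 1 rose (Tie1) and 1 fell (Pecam1). Of the 3 listed acinar markers Cela2a fell, and Cela1 and Prss2 passed the filter only through PMN. Smooth muscle and pericyte means ran from 2.06 to 2.23 in vehicle monocytes and from 4.46 to 5.91 in vehicle PMN. The part of such transcripts in the Amotl2 and Wwtr1 values was not tested.

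Of all 13968 genes tested 4586 rose and 3804 fell in vehicle monocytes against vehicle PMN, 60.1% in either direction. Of 10 further YAP and TAZ targets tested, 7 reached the filter on low values in both cell types, and 2 of these rose and 3 fell. The genes that fell were Nt5e, which encodes the ectonucleotidase CD73 (-3.39 ± 0.46; limma, adjusted p = 4.95e-05), the stress gene Gadd45a (-3.00 ± 0.41; limma, adjusted p = 5.80e-05) and Nuak2 (-1.05 ± 0.29). Asap1 (0.40 ± 0.15) rose, and so did Myof (1.56 ± 0.53), which did not pass with the replicate number as a block (limma, adjusted p = 0.0562). The other 3 targets, Ccdc80, the tissue factor gene F3 and Ptpn14, passed the filter only through PMN libraries, so nothing is read from their calls. Their values in vehicle cells were -0.61 to 0.98 in monocytes and 3.09 to 4.54 in PMN for Ccdc80, -1.80 to -0.33 in monocytes and 1.02 to 2.25 in PMN for F3, and -1.36 to -0.29 in monocytes and 0.35 to 1.28 in PMN for Ptpn14. Of the TEAD-related genes Vgll4 (-0.77 ± 0.24) fell. Tead2 also passed the filter only through PMN, with values of -0.54 to 0.17 in vehicle monocytes and 1.23 to 2.13 in vehicle PMN.

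Of 15 Hippo genes tested 5 rose and 5 fell in vehicle monocytes. Of all genes tested 60.1% were called, so nothing is read from the counts in this list or in the SRF list below. The kinase genes Taok1 (-1.20 ± 0.16), Lats1 (-0.75 ± 0.12) and the LATS cofactor gene Mob1b (-1.14 ± 0.18) fell. Taok3 (0.69 ± 0.12), the MST2 kinase gene Stk3 (1.01 ± 0.20) and Wwc2 (1.19 ± 0.26) rose, so the called genes of the list went both ways. Of 11 SRF genes tested the tropomyosin gene Tpm1 (0.61 ± 0.17) rose and 4 fell, which were the zyxin gene Zyx (-1.52 ± 0.12), Acta2 (-2.79 ± 0.44), Tagln (-1.31 ± 0.23) and Actb (-0.54 ± 0.17), the last of which did not pass with the block (limma, adjusted p = 0.0681).

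GS9820 had no called effect on the 4 genes in the sorted cells. In PMN 0% and in monocytes 0% of the 13968 genes were called by limma, with 430 and 335 genes at an unadjusted p under 0.05. Amotl2 had values of 3.59, 3.38, 3.70 and 3.51 in GS9820 monocytes, within the vehicle range given above, and 5.51, 5.08, 5.80 and 5.39 in GS9820 PMN. The differences were -0.08 ± 0.27 in monocytes (95% interval -0.67 to 0.51) and 0.43 ± 0.27 in PMN (95% interval -0.15 to 1.02). Both intervals include 0.

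Axl had values of 2.29, 3.25, 2.91 and 2.90 in GS9820 monocytes and of 3.63, 2.92, 3.61 and 2.94 in GS9820 PMN, with differences from vehicle of -0.20 ± 0.60 (95% interval -1.50 to 1.10) and -0.99 ± 0.60 (95% interval -2.29 to 0.31). The GS9820 libraries lay close together where the vehicle libraries were scattered. Lats2 had values of 6.36, 6.43, 6.43 and 6.44 in GS9820 monocytes and of 6.74, 6.83, 6.84 and 6.71 in GS9820 PMN, with differences of -0.11 ± 0.12 (95% interval -0.36 to 0.14) and 0.04 ± 0.12 (95% interval -0.21 to 0.29). Its intervals were the narrowest of the 4 genes. Wwtr1 had values of -2.88, -2.95, -5.08 and -4.24 in GS9820 monocytes and of 0.38, -0.40, -0.18 and -1.25 in GS9820 PMN, with differences of -1.05 ± 0.89 (95% interval -2.97 to 0.87) and -0.24 ± 0.89 (95% interval -2.16 to 1.68). The effect in monocytes minus that in PMN was called for 0 of the 4 genes (limma).

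**Figure D5:**
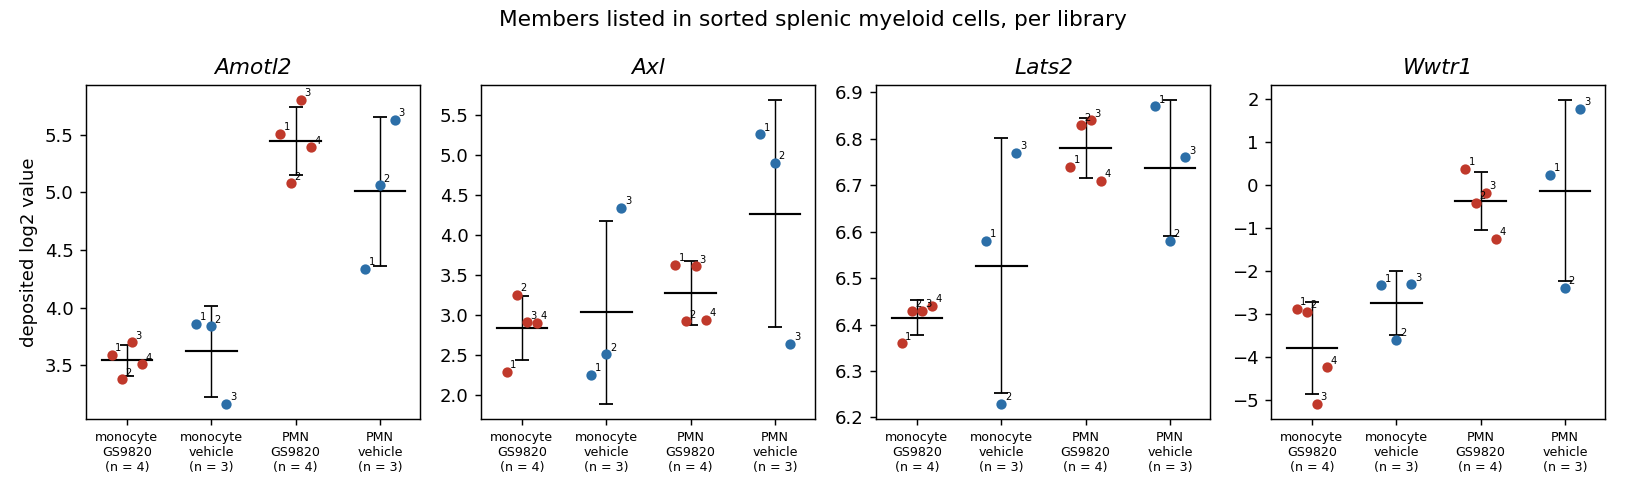
Deposited log2 values of the 4 listed genes in monocytes and PMN from the spleen, GS9820 (red, n = 4) left of vehicle (blue, n = 3) within each cell type; numbers are replicates, lines are means and bars SDs, and each panel has its own vertical scale. Amotl2 is lower in all 7 monocyte libraries than in all 7 PMN libraries, and Wwtr1 is at or below 0 in most libraries.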

How the data were processed

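Total RNA of 12 tumour and 14 sorted-cell libraries was sequenced. Per the labels' protocols, tumour libraries were stranded and depleted of ribosomal RNA, and the sorted cells were prepared with 1 of 2 kits. The authors deposited log2 values, named log2 RPKM in the files, 1 file per library; per the submitters' processing notes TopHat2, STAR, limma and mm10 were used, with versions and order not given. Symbols came from GENCODE M21 (GRCm38), which matched 16039 of 16322 tumour and 13886 of 14131 sorted-cell identifiers. Here, a gene stayed in if its value reached 0 in 5 or more tumours, or in 3 or more sorted-cell libraries, which left 16296 and 13968 genes. Differences were tested with limma 3.58.1 (trended eBayes, two-sided) in R 4.3.3, 1 fit per set, and Benjamini-Hochberg adjustment over all genes of a comparison. Correlations used 100000 two-sided permutations within groups (numpy 2.4.6 and scipy 1.17.1 in Python 3.11.15). Figures were drawn with matplotlib 3.10.9. The fits were tested on simulated data. The members, the wider lists and the tests were chosen with earlier results of these data known. All members are named, and of each wider list up to 6 genes past the threshold by smallest p, or else the 2 of smallest p; Acta2 and Tagln in tumours, Myof, Asap1 and the values of Ccdc80, F3, Ptpn14 and Tead2 in sorted cells, and marker genes given beside a result were added after their values were seen. In vehicle mice, same-numbered monocyte and PMN libraries correlated in their deviations from group means at 0.105 to 0.462 over the 3 pairs. Those numbers were therefore taken to pair them in a fit with a block, a pairing from the data and not from the labels. The 4 GS9820 pairs ran from -0.215 to 0.447. Values printed for monocytes against PMN come from the fit without the block unless it is named. With the block the adjusted p (limma) was 0.00710 for Amotl2, 0.0126 for Wwtr1, 0.00113 for Gadd45a and 0.000456 for Nt5e. The labels do not say that replicates came from separate mice, so p-values measure the spread between these libraries. Alternatives were other filters, scalings, variance settings, libraries left out and a block of the replicate number.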

Additional observations from a re-analysis of the deposited data

Results flagged for a closer look

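Of 28 groups of libraries examined, 3 held a library far from the rest of its group, where chance alone marks about 1 in 20 groups. Ccn1 was 8.76 in vehicle tumour replicate 3, above the other vehicle tumours. Ccn2 was 8.45 in vehicle tumour replicate 1, below the other vehicle tumours. Lats2 was 6.36 in GS9820 monocyte replicate 1, below the other GS9820 monocyte libraries by little in absolute terms. No cause was tested.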

How the results depend on the processing

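No filter or a stricter one, log2 of the value plus 1, quantile normalization, median centring and other variance settings gave 1 called member in tumours, Ankrd1, which was chosen for its fall, so that nothing is read from this. Leaving out single libraries gave 0 to 1 called members, 0 to 1690 called genes (0 without GS9820 replicate 4, 1690 without vehicle replicate 5), 0 to 2 called genes in the wider lists and Ankrd1 differences of -3.13 to -2.37. Array quality weights gave 2 members (Ajuba joined, -0.97), 2764 genes and 5 wider-list genes. The acinar covariate gave 0 members and 0 genes. Leaving out the 3 hepatocyte tumours gave 0 members and 223 genes. A block of the replicate number gave 0 members, 171 genes, 1 wider-list gene and -2.84 for Ankrd1; same-numbered libraries correlated at -0.177 to 0.265 in tumours and -0.434 to 0.21 between treatments of sorted cells, so the numbers were not taken to pair those. For monocytes against PMN the block changed no call of the members and gave 8414 called genes.

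Differences that were never called changed sign. Ccn1 in tumours was 0.20 with weights, 0.05 with the acinar covariate, 0.09 without the 3 hepatocyte tumours and -0.40 to 0.38 without single libraries. Lats2 in tumours was 0.06 without the 3 and -0.22 to 0 without single libraries. In PMN, Lats2 was -0.01 with weights and -0.03 to 0.11 without single libraries, and Wwtr1 was 0.06 with the block and -1.37 to 0.71 without single libraries. In monocytes, Lats2 was 0.03 with weights and -0.26 to 0.01, Amotl2 -0.30 to 0.04 and Axl -0.59 to 0.46 without single libraries. For monocytes against PMN, a filter at 2 removed Wwtr1 and left 1 called member, and leaving out single libraries gave 1 to 4. Correlated pairs numbered 6 with each other scaling and 1 to 9 without single libraries. The causes were not tested. Depth per library is unknown.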
